A study of Homo sapiens with 5 samples.

Results

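The genes described here make and use the sulfate donor of steroid hormones or reduce steroid ketones. They were SULT2A1, PAPSS1, PAPSS2, AKR1C1, AKR1C2, AKR1C3 and AKR1C4, 7 of the 20163 protein-coding genes annotated on hg19. SF-1-binding sites (peaks) were taken when their centre lay within 100 kb of one of these gene bodies, measured from the outermost annotated ends. Of the 30372 peaks in the 4 deposited lists, 10 met this rule.

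The peaks came from ChIP-seq of Steroidogenic Factor-1 (SF-1, the NR5A1 protein), a nuclear receptor of adrenal and gonadal cells. Chromatin was from the line H295R/TR SF-1. It was derived as a subclone from H295R, an established human adrenocortical tumor line, and doxycycline switches on extra SF-1 in it. The basal groups received no doxycycline, the overexpressed groups received it for 3 days before fixation, and both were grown under blasticidin and zeocin. Each dosage was precipitated with an antibody from Millipore and with another from Perseus Proteomics, and 3 libraries were pooled for each list. The lists hold positions and ranks and no expression values, so the cell type could not be checked against marker genes. All results come from this 1 subclone. With 1 list per group there was no replicate error between lists, no test was made between dosages or antibodies, and the intervals below cover counting error only.

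Dehydroepiandrosterone (DHEA) is the main androgen precursor of the human adrenal cortex, and most of it leaves the gland as its sulfate. SULT2A1 is the sulfotransferase that attaches the sulfate. PAPSS1 and PAPSS2 synthesise the sulfate donor, PAPS. The AKR1C enzymes are aldo-keto reductases that reduce ketone groups of steroids: AKR1C1 inactivates progesterone, AKR1C2 inactivates dihydrotestosterone, AKR1C3 converts androstenedione to testosterone, and AKR1C4 is best known from bile acid synthesis in the liver.

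The sequences of 6 of the 10 peaks, each the best-ranked of its list at its locus, are given first. The motif counts below rest on all 10 peaks, including those not printed. They are read from hg19 on the plus strand. The SF-1 consensus used here is the one found in vitro. It has 9 letters, T or C, then CAAGG, then T or C, then C, then A or G. The paper reports that the sequence bound in living cells showed no enrichment for the first of these. The consensus was searched on both strands. Capitals mark a match to the consensus or, where none was present, a word with 1 mismatch. A match on the minus strand appears as its reverse complement, and a sequence without capitals has 2 or more mismatches. At SULT2A1 the best-ranked peak of each overexpressed list was taken.
Overexpressed Millipore, rank 7193, chr19:48281751-48281899: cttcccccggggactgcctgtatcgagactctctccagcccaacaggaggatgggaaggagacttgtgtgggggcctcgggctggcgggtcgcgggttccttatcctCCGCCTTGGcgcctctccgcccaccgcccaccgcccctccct
Overexpressed Perseus, rank 2392, chr19:48395001-48395149: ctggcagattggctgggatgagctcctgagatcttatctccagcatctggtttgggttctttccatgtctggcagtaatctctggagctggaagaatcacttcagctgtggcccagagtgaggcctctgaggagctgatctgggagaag

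At PAPSS2 each Perseus list had 1 peak in the gene, and the basal one is shown.
Basal Perseus, rank 1985, chr10:89439001-89439149: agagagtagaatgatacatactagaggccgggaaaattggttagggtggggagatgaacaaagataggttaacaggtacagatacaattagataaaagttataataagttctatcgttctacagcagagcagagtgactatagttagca

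At the AKR1C genes the best-ranked peak of each of 3 lists is shown. The basal Millipore peak is printed with 108 bases of its left flank, which hold the consensus.
Basal Millipore, rank 495, peak chr10:5113501-5113649 with its flank from 5113393: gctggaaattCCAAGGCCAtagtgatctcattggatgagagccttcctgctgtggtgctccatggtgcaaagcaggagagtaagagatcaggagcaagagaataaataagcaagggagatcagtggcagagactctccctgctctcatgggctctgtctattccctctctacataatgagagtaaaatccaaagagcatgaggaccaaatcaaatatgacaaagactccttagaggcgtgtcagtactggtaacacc
Overexpressed Millipore, rank 1132, chr10:5352851-5353149: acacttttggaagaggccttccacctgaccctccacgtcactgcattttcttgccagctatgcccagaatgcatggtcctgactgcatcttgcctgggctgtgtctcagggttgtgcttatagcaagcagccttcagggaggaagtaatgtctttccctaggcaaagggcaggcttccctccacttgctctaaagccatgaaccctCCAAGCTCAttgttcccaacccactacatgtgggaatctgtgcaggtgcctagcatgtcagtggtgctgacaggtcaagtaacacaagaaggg
Basal Perseus, rank 4914, chr10:5246251-5246349: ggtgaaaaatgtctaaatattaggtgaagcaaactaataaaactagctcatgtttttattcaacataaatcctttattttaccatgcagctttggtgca

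The 10 peaks were spread thinly over the 4 lists and over 3 of the 4 loci. The basal Millipore list held 1, the overexpressed Millipore list 4, the basal Perseus list 2 and the overexpressed Perseus list 3. No peak of one list overlapped a peak of another, so the 10 peaks were 10 separate sites. SULT2A1 had peaks in both overexpressed lists and in neither basal list. PAPSS2 had peaks in both Perseus lists, PAPSS1 had none, and the AKR1C cluster had peaks in every list except overexpressed Perseus. The map of the 4 loci shows each peak with its rank.

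**Figure D1:**
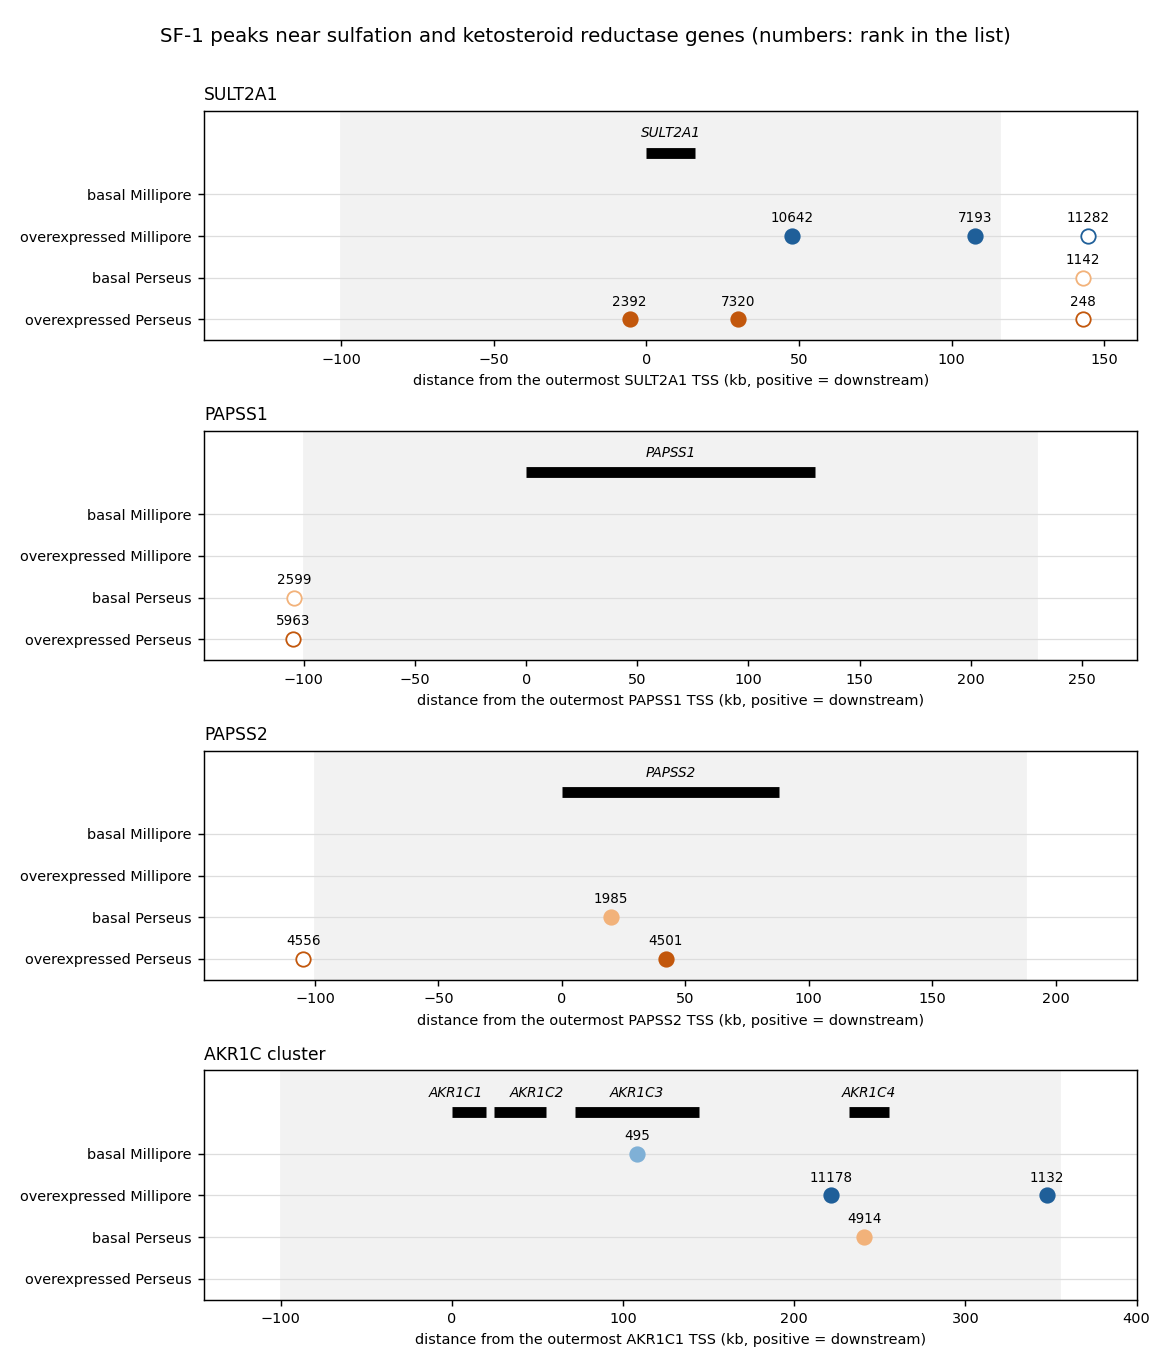
Map of the SF-1 peaks at SULT2A1, PAPSS1, PAPSS2 and the AKR1C cluster. The x axis is the distance in kb from the outermost TSS of the named gene, each row is a list, filled circles are peaks within 100 kb of a gene body (grey area) with their ranks, open circles are the nearest peaks just outside it, and black bars are the gene bodies. No filled circles of different rows stand at the same place, and PAPSS1 has none.

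SULT2A1 lies on the minus strand at chr19:48373724-48389572. Its nearest peak was in the overexpressed Perseus list, 5.50 kb upstream of the TSS, between genes, with rank 2392 of 7453. This was the only one of the 10 peaks that lay upstream of a member TSS, outside every gene, and had that TSS as its nearest coding start. The other Perseus peak, rank 7320, lay 29.9 kb downstream of the SULT2A1 TSS and 2.84 kb upstream of the TSS of TPRX2, a homeobox gene. It stood 98.2% of the way down its list.

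The Millipore peaks of the SULT2A1 window, both from the overexpressed list, were placed nearer to other genes. The peak with rank 7193 of 11910 lay 91.9 kb from the gene body and 109 bp upstream of the TSS of SELENOW, which encodes a selenoprotein. The peak with rank 10642 lay 31.9 kb from the gene body, in an intron of CRX, the photoreceptor transcription factor gene. In its 99 bases the letters TGTATG occurred 7 times, counted without overlapping occurrences. The closest pair across antibodies was this CRX peak and the Perseus peak of rank 7320, whose centres were 17.8 kb apart. The window of SULT2A1 held 5 other protein-coding genes, against 0 for PAPSS1, 1 for PAPSS2 and 1 for the AKR1C cluster.

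The basal lists had no peak within 100 kb of SULT2A1. The nearest basal Millipore peak lay 163.5 kb downstream of the gene body (rank 3363) and the nearest basal Perseus peak 127.1 kb downstream (rank 1142). The combination found at SULT2A1, a peak within 100 kb in both overexpressed lists and in neither basal list, was found at 1497 of the 20163 protein-coding genes, or 7.42%.

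PAPSS1, on the minus strand at chr4:108511433-108641390, lacked peaks inside the 100 kb limit in all 4 lists, as did 3161 protein-coding genes (15.7%). The nearest Perseus peaks lay just outside the limit, 104.4 kb upstream at basal dosage (rank 2599) and 104.8 kb upstream at overexpressed dosage (rank 5963). Their centres were 425 bp apart and they did not overlap. The nearest Millipore peaks were farther away, 313.2 kb upstream at basal and 346.3 kb upstream at overexpressed dosage.

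PAPSS2, on the plus strand at chr10:89419370-89507462, had a peak inside the gene in each Perseus list. The basal peak, rank 1985 of 6616, lay in an intron 19.7 kb downstream of the TSS. The overexpressed peak, rank 4501 of 7453, lay in an intron 42.05 kb downstream of the TSS. Their centres were 22.4 kb apart, so the gene had an intronic Perseus peak at both dosages and at different places. No Millipore peak lay in the window. The nearest were 1014.8 kb downstream at basal and 154.4 kb upstream at overexpressed dosage. Peaks in both Perseus lists and neither Millipore list were found at 3.22% of protein-coding genes. Both PAPSS enzymes thus lacked Millipore peaks within 100 kb, and only PAPSS2 had Perseus peaks within it.

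The AKR1C genes stand side by side on chromosome 10 and share peaks, so they are not independent. AKR1C1 (chr10:5005445-5025475, plus strand), AKR1C2 (chr10:5029967-5060223, minus strand), AKR1C3 (chr10:5077546-5149878, plus strand) and AKR1C4 (chr10:5237425-5260912, plus strand) had 4 peaks between them.

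The basal Millipore peak, rank 495 of 4393, counted for AKR1C1, AKR1C2 and AKR1C3 at once. It lay 88.1 kb from the body of AKR1C1, 53.4 kb from that of AKR1C2 and inside that of AKR1C3. By the outermost annotated start it was intronic, 36.03 kb downstream of the AKR1C3 TSS. The 5 transcripts that span it do not include the MANE Select transcript, the reference transcript of the gene, whose start lay 23.03 kb downstream of the peak. The nearest peaks of the other lists were 113.4 kb (overexpressed Millipore), 132.7 kb (basal Perseus) and 585.3 kb (overexpressed Perseus) away.

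AKR1C3 and AKR1C4 shared an overexpressed Millipore peak, rank 11178 of 11910, and a basal Perseus peak, rank 4914 of 6616. The Millipore peak overlapped 75 bp of coding exon of AKR1C8, a gene between AKR1C3 and AKR1C4, at 10.4 kb from the body of AKR1C4. The Perseus peak lay in AKR1C4, 8.88 kb downstream of its outermost TSS, and 10 bp of it overlapped a coding exon. The centres of these peaks were 19.3 kb apart. A second overexpressed Millipore peak, rank 1132, lay 92.1 kb downstream of the AKR1C4 body, and its nearest coding start was that of UCN3, encoding urocortin 3, 53.9 kb away. It was the widest of the 10 peaks, at 299 bp. The overexpressed Perseus list had no peak near any AKR1C gene, and its nearest lay between 438 kb (AKR1C4) and 673.4 kb (AKR1C1) from the gene bodies.

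Compared by dosage, the number of Millipore peaks near AKR1C4 was 0 at basal and 2 at overexpressed dosage. With Perseus it was 1 at basal dosage and 0 after overexpression. AKR1C3 had 1 peak in each list except overexpressed Perseus. AKR1C1 and AKR1C2 had 1 basal Millipore peak and no other. The presence of peaks in 3 lists was seen at 24.9% of protein-coding genes, in 2 lists at 21.1% and in 1 list at 18.8%. A peak in all 4 lists was seen at 19.5% of protein-coding genes and at 0 of the 7 members.

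The share of members with a peak within 100 kb lay above that of all genes in the basal Millipore list and below it in the other lists. In the basal Millipore list 3 of the 7 members had a peak within 100 kb, against 36.5% of protein-coding genes, and all 3 owed it to the same peak. In the overexpressed Millipore list the number was 3 of 7, against 67.9%. In the basal Perseus list it was 3 of 7, against 52.6%, and in the overexpressed Perseus list 2 of 7, against 56.7%.

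The distance from each gene body to the nearest peak gave the same values in another form. The median over all protein-coding genes was 178.9 kb in the basal Millipore list, 35.7 kb in the overexpressed Millipore list, 87.2 kb in the basal Perseus list and 68.6 kb in the overexpressed Perseus list. Over the 7 members the medians were 123.8, 154.4, 104.4 and 438 kb in the same order. The last of these rests on the 4 neighbouring AKR1C genes, which share the nearest peak.

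**Figure D2:**
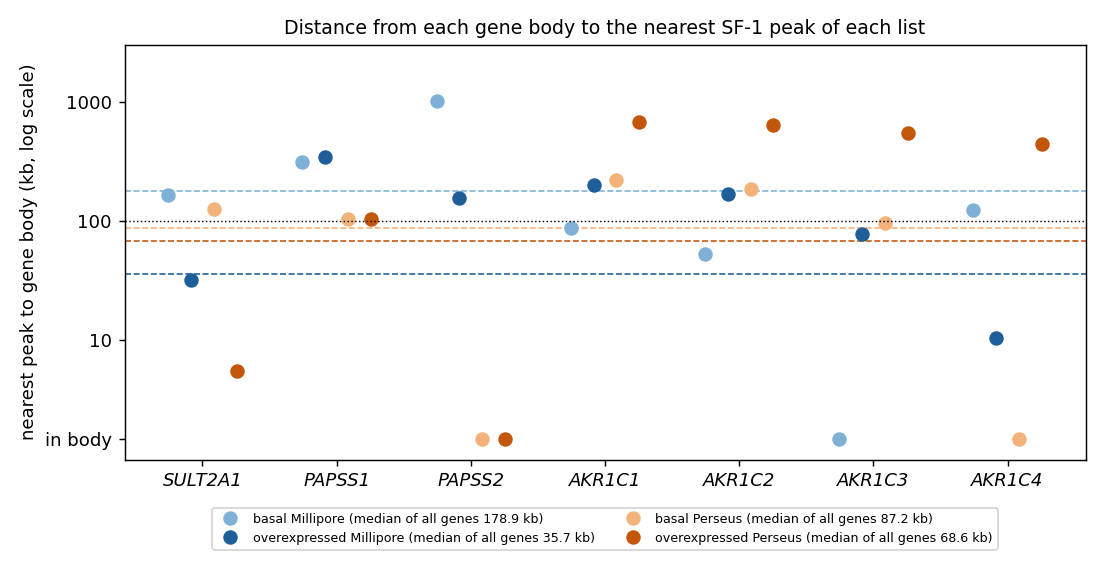
Distance in kb (log scale) from each gene body to the nearest SF-1 peak of each list, with peaks inside a gene body drawn at the bottom. Dashed lines are the medians of all protein-coding genes in the colour of the list, and the dotted line is the 100 kb limit. In the overexpressed Perseus list PAPSS2 has a peak in its body and SULT2A1 one at 5.50 kb, while the AKR1C genes lie 438 kb or more from one.

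The windows differ in length, so peaks were also counted per Mb. Together they covered 1.29 Mb. The basal Millipore list had 0.776 peaks per Mb there (95% exact Poisson interval 0.0196 to 4.32), against 1.54 per Mb over the genome. The overexpressed Millipore list had 3.10 per Mb (0.845 to 7.94), against 4.17. The basal Perseus list had 1.55 per Mb (0.188 to 5.60), against 2.31, and the overexpressed Perseus list 2.33 per Mb (0.480 to 6.80), against 2.61. All 4 values lay below the density of their list, and each interval included it. At the density of the whole list the windows would hold 1.98, 5.37, 2.98 and 3.36 peaks in the same order, where 1, 4, 2 and 3 were found.

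**Figure D3:**
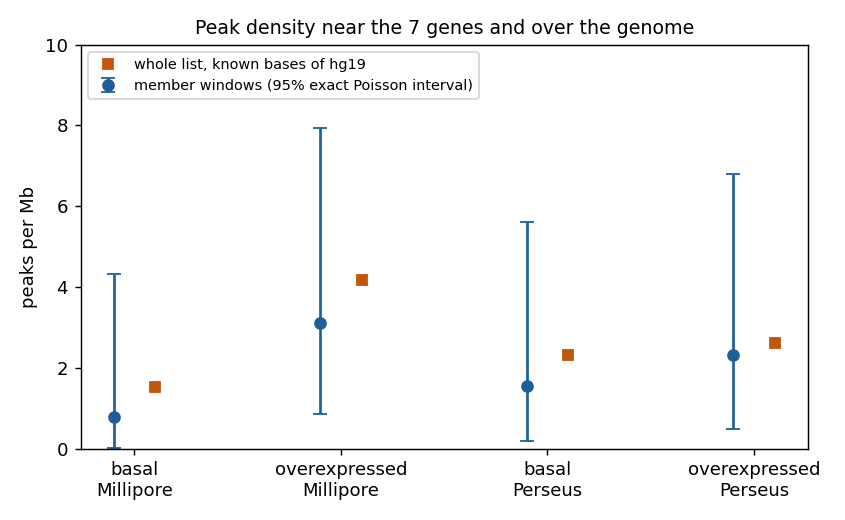
Peaks per Mb in the windows of the 7 genes (circles, with 95% exact Poisson intervals for counting error) and in the whole list over the known bases of hg19 (squares), for each list. Each square lies inside the interval beside it.

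The peaks near these genes were then compared with their lists in sharing, rank and sequence. None of the 10 overlapped a peak of another list. Over the whole lists 20.9% of basal Millipore, 16.6% of overexpressed Millipore, 37.7% of basal Perseus and 37.9% of overexpressed Perseus peaks did so. By rank, 4 of the 10 stood in the better-ranked 50% of their list. These were the AKR1C3 peak of the basal Millipore list (11.3% of the way down), the overexpressed Millipore peak downstream of AKR1C4 (9.51%), the basal Perseus peak in PAPSS2 (30.0%) and the overexpressed Perseus peak upstream of SULT2A1 (32.1%). The quantity behind the ranks is not given in the sources used here, and ranks of different lists are not on one scale.

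None of the 10 peaks held the SF-1 consensus within its deposited limits. Over the whole lists it was present in 16.0% of basal Millipore, 10.9% of overexpressed Millipore, 21.6% of basal Perseus and 17.2% of overexpressed Perseus peaks. All deposited ends stop 1 short of a multiple of 50, so 1 more base may have been meant as part of each peak. The count of 0 depends on that base: with it added, 1 of the 3 overexpressed Perseus peaks (33.3%) held the consensus, against 17.3% of that whole list. This was the peak of rank 7320, 98.2% of the way down its list and nearest to the TSS of TPRX2. The same peak, and no other of the 3, held the shorter core CAAGGTC within the deposited limits. The AKR1C3 peak of the basal Millipore list had CCAAGGCCA on the plus strand at chr10:5113403-5113411, with 89 bp between it and the peak. When the peaks were widened by 100 bp on each side, the consensus was present in this peak and in the overexpressed Perseus peak of rank 7320. It was present in none of the Millipore peaks after overexpression or the basal Perseus peaks. The shares of all peaks with the core, or with the consensus after widening, are not given here, so these counts have no background.

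The nearest words to the consensus within the deposited limits were weaker matches. The best word had 1 mismatch in 4 of the 10 peaks, 2 mismatches in 3 and 3 or more in 3. The 4 peaks were 2 of the overexpressed Millipore list and 2 of the overexpressed Perseus list. The Millipore words were CCAAGGCGG in the peak beside SELENOW and CCAAGCTCA in the peak downstream of AKR1C4. A word with at most 1 mismatch was present in 34.6% of all basal Millipore, 42.2% of overexpressed Millipore, 44.7% of basal Perseus and 46.8% of overexpressed Perseus peaks. The peak nearest to SULT2A1 and both peaks inside AKR1C3 and AKR1C4 had at least 2 mismatches. Of the promoters in RefSeq (GRCh38.p14, a window around each start), those of 6 of the 7 members were matched by symbol. The consensus occurred in 0 of these 6 and in 2.55% of all 35116 promoters. Letters that match are not binding sites in themselves, and their absence from a window says nothing further about the factor.

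The AKR1C genes arose by duplication and resemble each other, and reads that fit several places cannot be assigned to 1 of them. To describe this, every stretch of 32 bases was looked up in the whole genome on both strands. In the body of AKR1C1 52.1% of such words occurred once, and in that of AKR1C2 55.8%, against 81.0% for AKR1C3 and 90.9% for AKR1C4. The shares were 68.6% for SULT2A1, 90.1% for PAPSS1 and 91.3% for PAPSS2. Over the whole windows, from which the peaks were taken, SULT2A1 had the lowest share, 53.9%. It was 75.8% for the AKR1C cluster and 90.4% for both PAPSS1 and PAPSS2. AKR1C1, AKR1C2 and PAPSS1 had no peak inside the gene and none within 50 kb, and of these PAPSS1 had a high share of such words. Among the peaks the share was 100% in 6 and about 91% in both PAPSS2 peaks. It was 74.7% in the overexpressed Millipore peak at AKR1C8 and 36.4% in the overexpressed Perseus peak of rank 7320. The read length and the treatment of reads with several matches are not given in the sources used here, and the part of sequence identity in the peak counts was not tested.

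**Figure D4:**
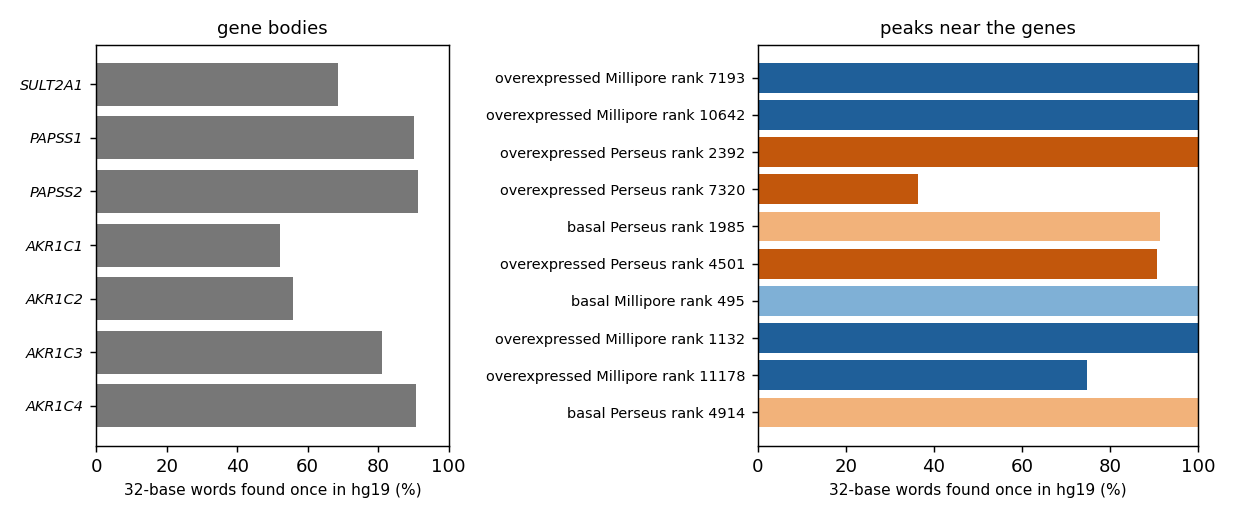
Share of 32-base words that occur once in hg19, in percent, in the bodies of the 7 genes (left) and in the 10 peaks near them (right, coloured by list as in the map). AKR1C1 and AKR1C2 have the lowest shares among the genes and the overexpressed Perseus peak of rank 7320 the lowest among the peaks.

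Other genes of the same pathways gave mixed counts. Of 18 further genes of sulfation and desulfation, 10 had a basal Millipore peak within 100 kb, 7 an overexpressed Millipore peak, 5 a basal Perseus peak and 5 an overexpressed Perseus peak. These were 55.6%, 38.9%, 27.8% and 27.8%, against 36.5%, 67.9%, 52.6% and 56.7% of all protein-coding genes. Of 22 further aldo-keto, carbonyl and steroid reductase genes the numbers were 9, 17, 13 and 15, or 40.9%, 77.3%, 59.1% and 68.2%. The reductase genes lay above the share of all genes in every list, and the sulfation genes only in the basal Millipore list. Peaks of different lists partly overlap, so the comparisons in the 4 lists are not independent. Of the AKR1C members, which share peaks, AKR1C1, AKR1C2 and AKR1C3 had a basal Millipore peak. AKR1C3 and AKR1C4 had a peak in the overexpressed Millipore list and in the basal Perseus list. In the overexpressed Perseus list 0 of the 4 had one. These sets of genes are small and were not tested.

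The limit of 100 kb cut close to several peaks. Just inside it were the basal Perseus peak at 96.4 kb from AKR1C3, the overexpressed Millipore peak at 92.1 kb from AKR1C4 and the overexpressed Millipore peak at 91.9 kb from SULT2A1. Just outside it were the Perseus peaks at 104.4 and 104.8 kb from PAPSS1 and an overexpressed Perseus peak at 104.7 kb upstream of PAPSS2 (rank 4556). Downstream of SULT2A1, at 127.1 kb, the basal and overexpressed Perseus lists had overlapping peaks (ranks 1142 and 248), and an overexpressed Millipore peak (rank 11282) lay 1625 bp from the basal one.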

How the data were processed

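SF-1 ChIP DNA of 4 groups (2 dosages by 2 antibodies, 3 pooled libraries each) was analysed. The input DNA has no peak list and was not used here. Per their methods section, the authors mapped reads to hg19 with ELAND v2 (the labels name CASAVA 1.6) and called peaks with CisGenome v2 SeqPeak on the libraries of a group together against input. Each deposited list gives start, end, a rank and a score, and the deposited score was 1000 for every peak. Starts fall on a 50 bp grid. Read numbers and depth are not given in the sources used here.

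Lists were read as BED (first base after the start, 1-based here) and compared with GRCh37, which is hg19, and GENCODE version 44 mapped to it. An overlap of 1 bp or more made peaks shared. Poisson intervals are exact, 95%, and cover counting error. All 7 members were named, and the best-ranked sequence per locus and list was shown, except 1. The letters of 2 peaks are not reported here, and both are in all counts. A table of further pathway genes was used by counts, and those with a peak within 10 kb in 2 or more lists are named. Members and lists were chosen with earlier results of these data known. Counting was tested on simulated data, in which all 400 planted overlaps and all 200 planted consensus words were found. Alternatives covered distance, gene ends, rank, overlap, consensus and annotation. Software was Python 3.11.15 with pysam 0.24.0, numba 0.67.0, scipy 1.17.1, numpy 2.4.6 and pandas 2.3.3.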

Additional observations from a re-analysis of the deposited data

Results flagged for a closer look

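The number of peaks near AKR1C4 moved in opposite directions with dosage in the lists of the 2 antibodies. From basal to overexpressed dosage it changed by 2 in the Millipore lists (from 0 to 2) and by -1 in the Perseus lists (from 1 to 0). Over the AKR1C cluster as a whole the changes were 1 with Millipore (from 1 to 2) and -1 with Perseus (from 1 to 0). Each of these is a count in a single pooled list, and the difference between antibodies was not tested. At the density of each whole list the cluster would hold 0.70 and 1.90 Millipore peaks at basal and overexpressed dosage. For Perseus it would hold 1.05 and 1.19. The combination at AKR1C4, a peak within 100 kb in the overexpressed Millipore and basal Perseus lists only, was found at 869 protein-coding genes (4.31%). Of the 2 Millipore peaks, 1 overlapped AKR1C8 and the other lay 92.1 kb from the AKR1C4 body.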

How the results depend on the processing

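Of 98 alternative values, 73 stayed within the limits set for a change and 25 moved. The limit was 1.5 times for counts and shares of all genes, and the 95% interval for shares of member peaks and densities. None of these values has a sign, so none could reverse. The interval of so few peaks is wide. With 1 mismatch allowed, 50% of overexpressed Millipore and 66.7% of overexpressed Perseus member peaks matched (from 0%), and both counted as kept. Over the whole lists these shares were 42.2% and 46.8%. With 50 kb in place of 100 kb the overexpressed Millipore peaks fell from 4 to 2 and the members with a basal Millipore peak from 3 to 1. With 10 kb the overexpressed Millipore list had 0 peaks at 0 members, and 1 member had a basal Millipore peak. In each Perseus list 2 of the 7 members had a peak. The shares of all protein-coding genes became 12.9% (basal Millipore), 34.8% (overexpressed Millipore), 24.7% (basal Perseus) and 27.2% (overexpressed Perseus). At 10 kb the member share lay just above that of all genes in the basal Millipore list and in both Perseus lists. In the Perseus lists it lay below at 100 kb. With 1 member fewer at 10 kb each would lie below, so no change of side is read from these numbers. Measured from the outermost TSS, 2 overexpressed Millipore peaks were left. In the better-ranked 50% of the lists, and likewise in the 4393 best-ranked peaks of each, the overexpressed Millipore, basal Perseus and overexpressed Perseus lists kept 1 peak at 1 member each. The better-ranked 50% gave 4 distinct sites in place of 10, all still in a single list. Widening the peaks by 100 bp put the consensus in the 1 basal Millipore peak (100% from 0%) and in 33.3% of the overexpressed Perseus peaks (from 0%). The share of all peaks so widened is not given here. The core word and the added base gave the same 33.3%, which lay inside the interval of the 3 peaks. Without the AKR1C cluster the basal Millipore density was 0 peaks per Mb. The gene ends of the MANE Select transcript changed no count, and dropping peaks in which under 75% of 32-base words occur once left 3 overexpressed Millipore and 2 overexpressed Perseus peaks. These, and the added base at the peak end, were chosen after seeing the data. The counts are too small for differences between lists to be read from them. No paired analysis was possible because each group has 1 list made from pooled libraries, and for the same reason no library could be left out.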

Other observations

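Further genes of these pathways had peaks within 10 kb of the gene body in 2 or more lists. They were picked by this rule from the 18 and 22 further genes counted above. The share of all protein-coding genes that meet it is not given here. AKR1B1, an aldose reductase that also forms prostaglandin F, had a peak 0.261 kb downstream of its TSS in the overexpressed Millipore list (rank 7902) and in the basal Perseus list (rank 475), and one at 0.236 kb in the overexpressed Perseus list (rank 438). These peaks overlapped each other and all held the SF-1 consensus. AKR1D1, the steroid 5β-reductase gene, had peaks at 0.395, 0.195 and 0.67 kb upstream of its TSS in the overexpressed Millipore, basal Perseus and overexpressed Perseus lists. None of these overlapped, but the overexpressed Millipore peak ended at chr7:137686749 and the basal Perseus peak started at chr7:137686751, so they nearly touched. A basal Millipore peak lay 47.4 kb downstream of the TSS.

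SULT2B1, which sulfates cholesterol and hydroxysteroids, had 4 overexpressed Millipore peaks (ranks 79, 750, 9097 and 11144), 2 basal Perseus peaks (ranks 3812 and 5221) and 2 overexpressed Perseus peaks (ranks 3276 and 4797). None held the consensus. SLC35B3, a carrier that brings PAPS into the Golgi, had the same peak in both Perseus lists, 0.006 kb from its TSS (ranks 4186 and 4061). SUMF1, the activator of sulfatases, had 2 basal Millipore and 3 overexpressed Perseus peaks inside its long gene body, 71.2 kb or more from the TSS. Of these, the overexpressed Perseus peak of rank 368 held the consensus.

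Among the hydroxysteroid dehydrogenases, HSD17B3 had peaks in 4 lists, of which the basal and overexpressed Perseus peaks (ranks 3233 and 2500) overlapped, 8.41 and 8.48 kb downstream of the TSS. HSD17B12 had overlapping Perseus peaks 0.155 and 0.13 kb upstream of its TSS (ranks 4686 and 4753) and an overexpressed Millipore peak 0.57 kb downstream (rank 5742). HSD17B1 had overlapping overexpressed Millipore and Perseus peaks (ranks 4623 and 6027), about 2 kb downstream of its TSS. HSD17B14 had a basal Perseus and an overexpressed Millipore peak (ranks 2354 and 8154), which did not overlap.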
